A study of Homo sapiens with 12 samples.

Results

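The protein machinery of RNA polymerase II (Pol II) initiation was followed through 42 genes. They are the 12 Pol II subunit genes, 17 genes of the general factors TFIIA, TFIIB, TFIIE, TFIIF and TFIIH, and 13 genes of TBP-associated factors (TAFs). The members were listed by name according to the complex they belong to. The rule used no measured value, but the list was made with earlier results of these data known. Of them, 41 were among the 34318 genes with a matched transcript in the deposited table. Messenger RNA was sequenced with a strand-specific kit in HEK293T cells, an easily transfected human embryonic kidney line. In the knockdown experiment, POLR3A, the gene of the largest subunit of RNA polymerase III (Pol III), was targeted by siRNA (siPOLR3A) and compared with siControl 2 days later. In the inhibitor experiment they received the vehicle DMSO at 0.1% or the Pol III inhibitor ML60218 at 25 µM for 4 hours. Each of these 4 groups held 3 libraries, and the experiments shared no control library. The sequence and number of the siRNAs are not given in the sources used here.

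Pol II transcribes protein-coding genes. TFIID, built from the TATA-binding protein TBP and TAFs, recognises the core promoter, TFIIA and TFIIB stabilise it there, TFIIF brings in the polymerase, and TFIIE recruits TFIIH. TFIIH holds the helicase-family subunits encoded by ERCC2 and ERCC3. It opens DNA, also serves in nucleotide excision repair, and phosphorylates Pol II through the CDK7, CCNH and MNAT1 kinase module. Of the 12 Pol II subunits, 5 are also built into Pol I and Pol III, the enzymes of ribosomal RNA and of transfer RNA and 5S ribosomal RNA. These shared subunits connect the polymerase perturbed in the study to the one that makes mRNA.

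RefSeq on GRCh38.p14 held an upstream sequence for 35 of the 42 members. The 4 shown belong to members that the comparisons turn on. POLR2L and TAF13 differed in opposite directions in the experiments, GTF2A2 was lower in both, and POLR2D was the subunit gene with the largest fall after siPOLR3A. Each runs 5′ to 3′ toward the gene, within 250 bases of the RefSeq start site, and is limited to bases outside every GENCODE 29 exon. Capitals mark matches on either strand to the GC box GGGCGG, the ETS core CCGGAAG, the TATA box TATAAA, the YY1 core AAGATGGC, the CCAAT box, the NRF1 core or the Pol III box B motif GTTCGANNC.
POLR2L, chr11:842546-842779, minus strand: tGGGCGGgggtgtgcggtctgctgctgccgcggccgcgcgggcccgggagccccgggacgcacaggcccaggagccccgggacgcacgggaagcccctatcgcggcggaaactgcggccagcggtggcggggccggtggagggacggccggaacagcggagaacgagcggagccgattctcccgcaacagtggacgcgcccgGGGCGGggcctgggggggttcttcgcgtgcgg
TAF13, chr1:109076004-109076253, minus strand: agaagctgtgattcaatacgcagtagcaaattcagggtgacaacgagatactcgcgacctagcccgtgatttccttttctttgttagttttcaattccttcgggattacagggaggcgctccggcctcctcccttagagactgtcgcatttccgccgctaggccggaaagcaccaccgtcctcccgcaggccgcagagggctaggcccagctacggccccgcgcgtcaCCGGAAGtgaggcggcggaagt
GTF2A2, chr15:59657542-59657765, minus strand: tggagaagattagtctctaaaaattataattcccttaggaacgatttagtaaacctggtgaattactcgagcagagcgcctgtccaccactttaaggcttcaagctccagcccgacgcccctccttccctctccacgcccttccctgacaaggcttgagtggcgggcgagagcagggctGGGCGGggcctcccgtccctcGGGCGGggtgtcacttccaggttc
POLR2D, chr2:127858158-127858405, minus strand: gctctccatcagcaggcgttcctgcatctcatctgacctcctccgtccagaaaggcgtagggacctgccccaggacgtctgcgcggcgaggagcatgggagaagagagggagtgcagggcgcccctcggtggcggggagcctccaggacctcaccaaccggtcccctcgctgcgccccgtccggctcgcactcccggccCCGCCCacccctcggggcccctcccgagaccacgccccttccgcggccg

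The ETS core lay in the 250 upstream bases of 13 of the 35 members (37.1%) and in 10.7% of the protein-coding promoters of the same table. The GC box lay in 20 members (57.1%) and in 53.7% of coding promoters. Only GTF2B held TATAAA (2.86% of the members), against 9.01% of coding promoters. The CCAAT box was present in 6 members (17.1%) and 32.7% of coding promoters. GTF2H3 held the single match to the box B motif, found in 0.752% of coding promoters, POLR2F the single match to the NRF1 core (1.28%) and GTF2E1 that to the YY1 core (1.38%). These matches are descriptions of letters and not of factor binding.

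Libraries held between 37008325 and 49479476 estimated reads. POLR3A stood between 86.8 and 93.5 CPM (counts scaled by library size) in siControl and between 14.6 and 19.25 CPM in siPOLR3A. POLR3A was lower with ML60218 too (log2 fold change −0.38, SE 0.041, adjusted p 0.000229). Vimentin, a gene of this line, ranged from 267 to 435 TPM (transcript abundance scaled for length and library size), and KRT8, KRT18, PAX2, NEFM, NEFL and LIN28B were all detected. Of the genes chosen as markers of other cell types that should be absent, PTPRC of blood was listed at 0. PECAM1, COL1A2, ALB and UMOD did not exceed 0.255 TPM. COL1A1 of fibroblasts, chosen as absent too, was present and ranged from 18.2 to 28.1 TPM. The labels do not say whether replicates came from separate cultures, so p-values measure the spread between these libraries only. In bulk RNA, fewer cells of a kind and less RNA per cell cannot be told apart.

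Of the 42 members, 41 had a transcript matched to GENCODE 29 and 40 were tested. GTF2H1, the p62 subunit of TFIIH, had 0 of its 16 annotated transcripts matched and was not analysed here. GTF2H4, another TFIIH core subunit, had 1 of 6 matched and was listed at 0 in every library. POLR2A, the catalytic subunit RPB1, had 9 transcripts matched but a mean of only 126 estimated reads per library, of which 13.4% lay in its coding transcript. Its siControl values were 3.71, 3.12 and 3.06 CPM, its siPOLR3A values 4.63, 4.03 and 4.14 CPM, its DMSO values 2.26, 2.62 and 3.60 CPM and its ML60218 values 3.65, 2.74 and 2.15 CPM. Those reads were spread over short retained-intron transcripts, so the POLR2A values do not describe the full-length mRNA. CDK7 had 7 of 15 transcripts matched and a mean of 122 reads, and TAF4 had 4 of 9 and GTF2H2 6 of 14 matched. Coding genes on the opposite strand overlap many members. Among them are POLR2L (CD151), POLR2F (SOX10 and C22orf23), GTF2H3 (EIF2B1) and CCNH (RASA1). Others are POLR2B (IGFBP7 and NOA1), POLR2C (DOK4), POLR2E (ARHGAP45), POLR2I (OVOL3 and TBCB), GTF2A2 (GCNT3), ERCC2 (KLC3) and TAF11 (UHRF1BP1). The strand setting of the quantification is not given in the sources used here. TAF9 shares its strand and part of its locus with AK6, as TAF7 does with SLC25A2, and POLR2J has near-identical copies.

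Levels compared per transcript length placed the small shared subunits at the top. In siControl, POLR2F stood at 164 ± 1.00 TPM, POLR2L at 160.0 ± 5.89, POLR2H at 156 ± 6.29 and POLR2B, the second-largest subunit, at 138 ± 3.52 (SD, n = 3). POLR2F and POLR2L, and POLR2L and POLR2H, differed by less than the larger of their SDs. Next came GTF2A2 (118 ± 2.92 TPM) and POLR2E (117 ± 1.34 TPM), which also did not differ beyond their spread. The lower TAFs included TAF8 at 10.0 ± 0.491 TPM, TAF4 at 7.74 ± 0.99 and TAF3 at 7.58 ± 0.301. TAF13 (99.4 ± 3.76 TPM) and TAF9 (74.1 ± 7.24 TPM) were the highest TAFs. GTF2H5, the smallest TFIIH subunit, was at 3.02 ± 0.248 TPM in siControl. The value listed for CDK7 (3.17 ± 1.01 TPM) did not differ from it beyond the spread. With 7 of 15 transcripts matched, that value does not describe the level of CDK7 mRNA. POLR2F, POLR2L and POLR2H also led in DMSO, at 247 ± 14.5, 213 ± 11.7 and 183 ± 3.11 TPM.

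**Figure D1:**
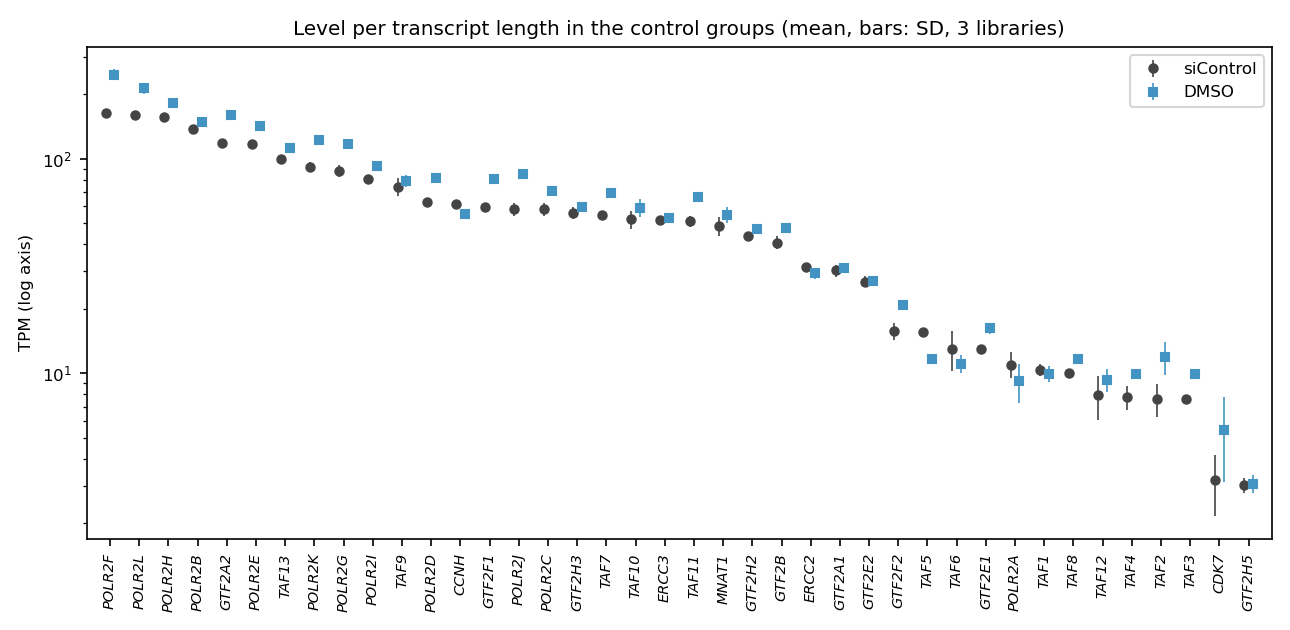
TPM of each member on a log axis in siControl (circles) and DMSO (squares), as mean and SD of 3 libraries, ordered by the siControl mean and without GTF2H1 and GTF2H4. On matched transcripts, polymerase subunits fill most of the upper end, from POLR2F at 164 TPM in siControl, and many TAFs the lower end. The points of TAF2, TAF6, TAF8 and TAF12 leave out newer transcripts that held many of their reads.

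The knockdown comparison asked how the mRNAs of this machinery differed 2 days after the POLR3A siRNA. They moved in both directions, with 15 members higher and 15 lower. The 30 called members are 75.0% of the 40 tested, against 56.6% of all 15404 genes tested (27.4% higher, 29.2% lower). Called means an adjusted p under 0.05 in edgeR's quasi-likelihood test with Benjamini-Hochberg adjustment over all genes. The median log2 fold change was −0.025 for the members and 0.005 for all genes. The CPM ranges of the groups did not overlap for 33 members, against 63.4% of all genes.

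Among the Pol II subunits, 7 were higher (POLR2A, POLR2B, POLR2F, POLR2G, POLR2I, POLR2J and POLR2L), 3 were lower (POLR2D, POLR2E and POLR2K) and 2 did not pass. This is 83.3% called, against 56.6% of all genes. The POLR2A value does not describe its full-length mRNA. With a GC and length trend removed, the calls of POLR2F, POLR2I, POLR2J and POLR2L ended. POLR2D encodes RPB4, part of the stalk of the enzyme (ENSG00000144231, GRCh38 chromosome 2, 127843551 to 127858157, minus strand). It stood at 135.8, 136.3 and 138.6 CPM in siControl and at 87.8, 85.9 and 85.6 CPM in siPOLR3A. The knockdown libraries were all below every control, by −0.66 on the log2 scale (SE 0.026, adjusted p 6.67e-11). POLR2G, which encodes RPB7, the stalk partner of RPB4, was at 45.7, 50.1 and 51.2 CPM in siControl and 55.1, 56.6 and 53.5 CPM in siPOLR3A. It was higher in every knockdown library, by 0.17 (SE 0.043, adjusted p 0.00407). The stalk genes thus differed in opposite directions.

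POLR2B, which encodes RPB2 of the active centre, was at 369.5, 378 and 373 CPM in siControl and at 398, 409 and 401 CPM in siPOLR3A. This was a small rise of 0.11 (SE 0.022, adjusted p 0.000771) with no overlap. POLR2I, which encodes the RPB9 subunit, was at 21.6, 22.2 and 21.2 CPM in siControl and 24.6, 24.4 and 24.9 CPM in siPOLR3A. The rise was 0.18 (SE 0.047, adjusted p 0.00446), and the groups were apart. The call ended with an isoform length offset (0.14) and with a GC and length trend removed (0.01). POLR2A was called higher by 0.38 (SE 0.124, adjusted p 0.0189), on the few reads described above, and 4 of 16 alternative settings removed the call.

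Of the 5 shared subunits, POLR2F (RPB6) and POLR2L (RPB10) rose while POLR2E (RPB5) and POLR2K (RPB12) fell. POLR2L (ENSG00000177700, chromosome 11, 837356 to 842545, minus strand) was at 43.6, 46.0 and 46.3 CPM in siControl and 54.0, 53.7 and 52.3 CPM in siPOLR3A. Every knockdown library was higher, by 0.23 on the log2 scale (SE 0.035, adjusted p 5.54e-05). POLR2F was at 57.5, 60.7 and 58.2 CPM in siControl and 70.2, 66.6 and 69.0 CPM in siPOLR3A, a rise of 0.22 (SE 0.034, adjusted p 6.38e-05) with no overlap. POLR2E fell by 0.19 and POLR2K by 0.11, the latter a call that 6 of 16 alternatives removed, and POLR2H (RPB8) had a value of −0.07 that did not pass. The fall of POLR2E was not seen in its coding transcript POLR2E-213, which is described with the transcripts below. With a trend over GC content and transcript length removed from each library, 3 subunits were called higher and 4 lower, and the values of POLR2F and POLR2L were 0.07 and 0.02. Across the 12 subunit genes, which share the same libraries, the change ran against mean transcript length with a Spearman rho of −0.86, against −0.06 across 15394 genes. POLR2A entered with a length of 769 bases, from the short transcripts described above and not from its full-length mRNA. The correlation without POLR2A was not computed.

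The general factors fell more often than they rose, with 8 lower, 3 higher and 4 not passing among 15 tested (73.3% called, against 56.6% of all genes). Both TFIIA genes fell, GTF2A1 by 0.20 and GTF2A2 by 0.16, whereas both TFIIE genes were higher, GTF2E1 by 0.24 and GTF2E2 by 0.15. GTF2F1, the large TFIIF subunit, was lower (−0.33, SE 0.026, adjusted p 9.69e-08), and GTF2F2, the small one, had 0.13 (adjusted p 0.0735). In TFIIH, 5 genes were lower.

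CCNH encodes cyclin H, which activates CDK7 (ENSG00000134480, chromosome 5, 87318416 to 87413019, minus strand). It was at 57.15, 54.2 and 56.2 CPM in siControl and at 32.0, 30.3 and 30.1 CPM in siPOLR3A. All knockdown libraries were below the controls, by −0.86 on the log2 scale (SE 0.038, adjusted p 2.3e-10). MNAT1, the assembly factor of the same module, fell by 0.20 (SE 0.042, adjusted p 0.00111). CDK7 itself, named here after its values were seen, was at 1.496, 2.00 and 1.84 CPM in siControl and at 11.8, 0.892 and 1.17 CPM in siPOLR3A. A single siPOLR3A library was high. In it the coding transcript CDK7-201 was at 10.9 TPM while it was listed at 0 in the other 5 libraries of this comparison. CDK7 did not pass (log2 fold change 1.38, SE 1.216, adjusted p 0.401), and without siPOLR3A replicate 1 its value was −0.80 (adjusted p 0.0111). With 7 of 15 transcripts matched and the coding one mostly listed at 0, none of these values describes the level of CDK7 mRNA.

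ERCC2 encodes XPD, a helicase of TFIIH. It was at 71.3, 67.4 and 69.7 CPM in siControl and at 47.0, 51.7 and 51.5 CPM in siPOLR3A. The groups were apart, by −0.47 (SE 0.04, adjusted p 1.99e-07), while ERCC3, the XPB translocase, had 0.06 (adjusted p 0.0707). GTF2H3 (p34) stood at 97.1, 98.7 and 101.7 CPM in siControl and 81.6, 87.8 and 84.7 CPM in siPOLR3A, a fall of 0.23 (SE 0.033, adjusted p 3.58e-05). GTF2H5 fell by 0.28. GTF2H2, whose near-identical copies make its reads uncertain, was called 0.09 higher, and 8 of 16 alternatives removed that call.

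TAF genes differed among themselves, with 5 higher, 4 lower and 4 not passing of 13 (69.2% called, against 56.6% of all genes). TAF4, a scaffold of TFIID, was at 21.2, 18.4 and 18.1 CPM in siControl and at 31.4, 32.5 and 28.4 CPM in siPOLR3A. Each knockdown library was above every control, by 0.68 (SE 0.07, adjusted p 4.51e-06). TAF11 and TAF13 encode histone-fold proteins that pair in TFIID, and they moved apart. TAF11 was at 70.0, 69.7 and 75.1 CPM in siControl and 43.0, 42.6 and 45.6 CPM in siPOLR3A, a difference of −0.71 (SE 0.039, adjusted p 2.24e-09). TAF13 was at 89.2, 91.7 and 92.1 CPM in siControl and 120.9, 127.1 and 124.6 CPM in siPOLR3A, a rise of 0.45 (SE 0.029, adjusted p 1.05e-08). In both genes the groups were apart.

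TAF9, a histone-fold TAF also found in the SAGA coactivator, was at 49.6, 48.7 and 56.6 CPM in siControl and 41.9, 41.6 and 33.1 CPM in siPOLR3A. The groups did not overlap, but the call was marginal (−0.41, SE 0.12, adjusted p 0.0395) and was lost under 10 of 16 alternative settings. TAF7, a regulator of TAF1, was at 103.4, 107.7 and 103.3 CPM in siControl and 122.0, 122.2 and 124.1 CPM in siPOLR3A, a rise of 0.23 (SE 0.027, adjusted p 6.45e-06) without overlap. TAF8 (0.39) and TAF10 (0.25) were also higher and TAF5 was lower (−0.38). Without its part in the GC and length trend, TAF10 had 0.08 (adjusted p 0.15). The largest fitted fall of any member, that of TAF2, is treated with the transcripts below.

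**Figure D2:**
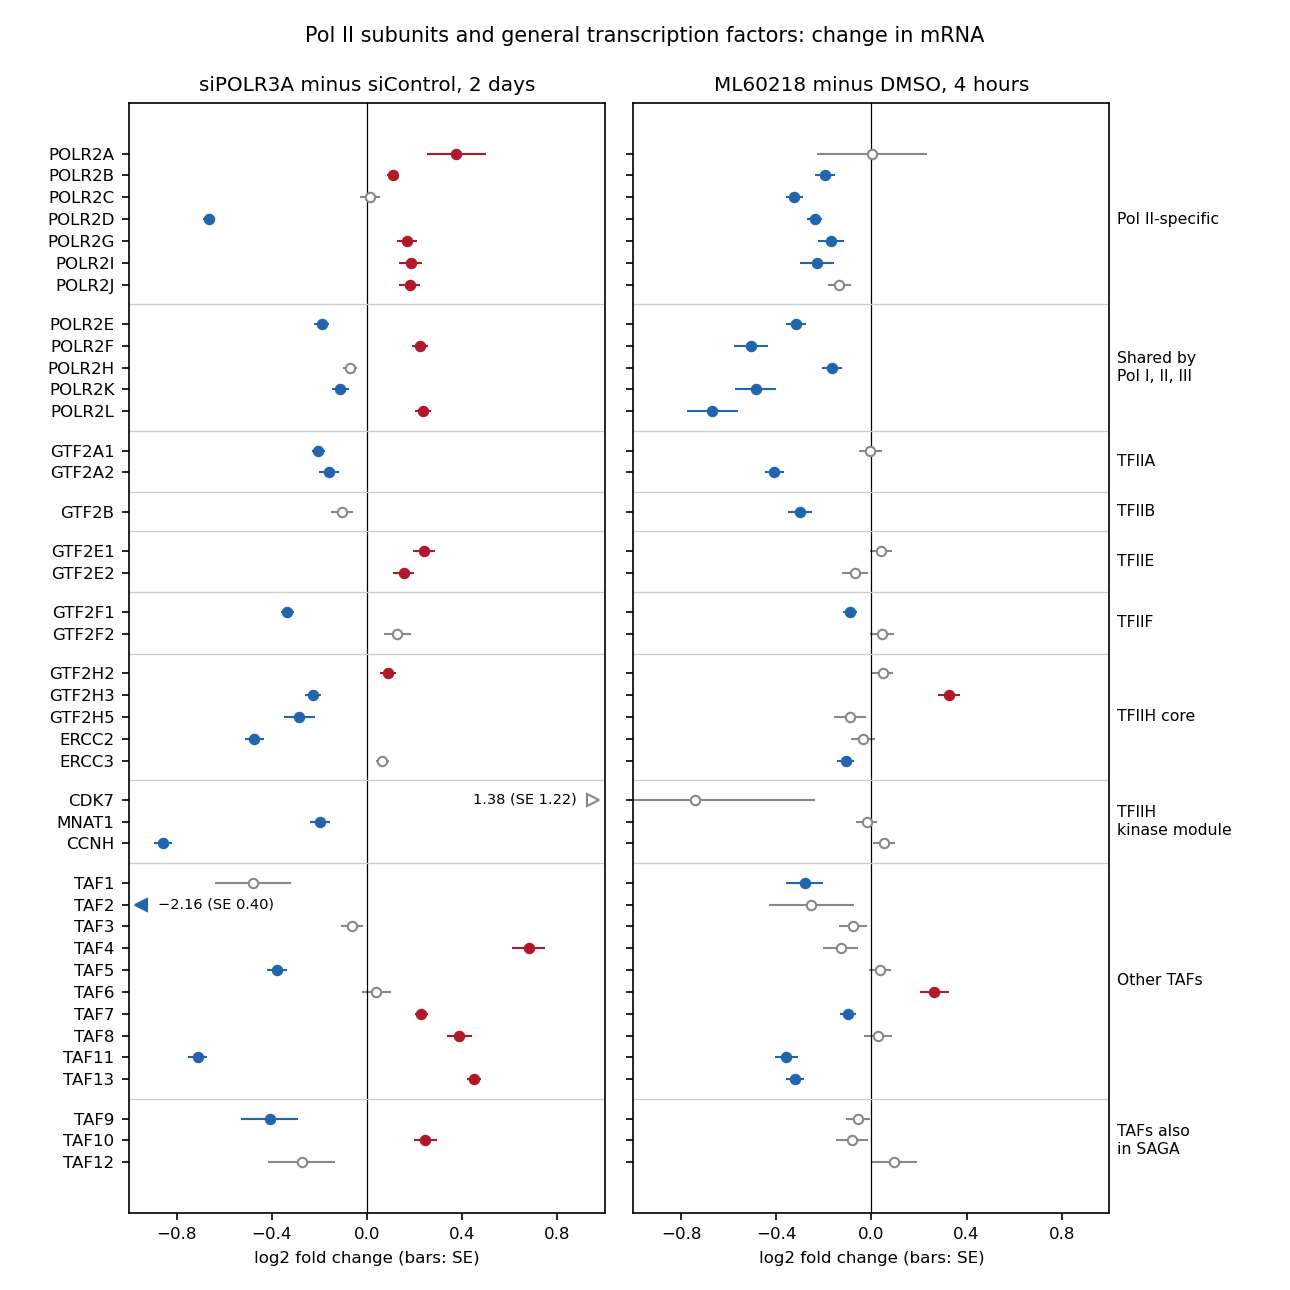
Log2 fold change with its SE for the 40 tested members in the knockdown (left) and inhibitor (right) experiment, by complex. Red points were called higher, blue points lower and open points not called, and arrowheads mark TAF2 and CDK7, whose knockdown values lie off the axis. The subunits of Pol II lie to the left of 0 in the inhibitor panel except POLR2A at 0.00.

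The inhibitor comparison asked the same after 4 hours of ML60218. The called members were mainly lower, with 2 higher and 18 lower. These 20 of the 40 stand against 39.0% of all 15461 genes tested (18.1% higher, 20.9% lower). Their median log2 fold change was −0.104, against 0.005 for all genes. The CPM ranges did not overlap for 21 members, against 51.9% of all genes. With libraries scaled by total counts, or without DMSO replicate 3, 12 members were lower and 2 higher. In TPM some of the called falls were small or absent. POLR2B was at 148 ± 2.81 TPM in DMSO and 145 ± 6.26 in ML60218, and TAF7 at 69.3 ± 1.14 and 71.0 ± 5.86 (SD, n = 3). In the same order, POLR2G was at 117 ± 5.48 and 114 ± 9.41 TPM and POLR2E at 143 ± 5.69 and 137 ± 3.71. POLR2H was at 183 ± 3.11 and 173 ± 3.45 TPM, POLR2D at 81.2 ± 2.35 and 75.8 ± 4.73, and POLR2I at 92.4 ± 4.15 and 85.7 ± 4.04. POLR2L, at 213 ± 11.7 and 148 ± 15.8 TPM, and POLR2F, at 247 ± 14.5 and 188 ± 11.9 TPM, were lower in TPM too. So were POLR2K (122 ± 5.71 and 96.1 ± 8.78 TPM) and POLR2C (70.7 ± 3.6 and 63.3 ± 2.61 TPM).

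Pol II subunits made up most of the falls. Of the 12, 10 were lower and 0 higher in edgeR (83.3% called, against 39.0% of all genes). DESeq2 also called 10 lower and 0 higher. At an unadjusted p under 0.05 in edgeR there were 11 lower and 0 higher. The share of all genes at that unadjusted p was not computed. The median log2 fold change of the 12 was −0.23 on counts. In TPM several of these falls were smaller, as given above. Scaling by total counts, and leaving out DMSO replicate 3, each left 7 lower. All 5 shared subunits were lower as reported and in every alternative except those same settings, which kept 4 and lost POLR2H.

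POLR2L was at 59.8, 57.5 and 56.9 CPM in DMSO and at 42.6, 36.2 and 30.9 CPM in ML60218. Every treated library was below every control, although the treated ones were spread, and the difference was −0.67 on the log2 scale (SE 0.107, adjusted p 0.0037). POLR2F was at 86.8, 85.2 and 84.8 CPM in DMSO and 64.8, 63.3 and 53.0 CPM in ML60218, with −0.51 (SE 0.07, adjusted p 0.00106). POLR2K was at 67.5, 64.8 and 66.0 CPM in DMSO and 50.6, 51.0 and 40.2 CPM in ML60218, with −0.49 (SE 0.088, adjusted p 0.00446). In these 3 genes the groups were apart, and ML60218 replicate 3 was the lowest library. Without it the values of the 5 shared subunits ran from −0.56 to −0.13, and all remained lower.

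POLR2E fell by 0.32 and POLR2H by 0.17. For POLR2E, the mean of the coding transcript POLR2E-213 went from 26.2 TPM in DMSO to 18.5 TPM in ML60218. The means of POLR2E-201 (45.9 and 47.0 TPM), POLR2E-206 (31.1 and 33.1) and POLR2E-212 (27.5 and 28.1) were not lower in TPM. POLR2C, which encodes the assembly subunit RPB3, was at 87.7, 89.8 and 84.8 CPM in DMSO and 70.6, 69.5 and 69.5 CPM in ML60218. The groups did not overlap, with −0.33 (SE 0.036, adjusted p 0.000266), while in the knockdown POLR2C had 0.01 (adjusted p 0.834). POLR2B was at 405.4, 409 and 406 CPM in DMSO and 368.5, 368.0 and 331 CPM in ML60218, with −0.19 (SE 0.042, adjusted p 0.00577). POLR2D fell by 0.24, also without overlap.

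POLR2G was at 62.1, 62.5 and 61.4 CPM in DMSO and 54.0, 59.9 and 51.6 CPM in ML60218 (−0.17, SE 0.054, adjusted p 0.03). POLR2I was at 23.9, 23.7 and 27.4 CPM in DMSO and 22.6, 20.3 and 21.0 CPM in ML60218 (−0.23, SE 0.07, adjusted p 0.0264). Neither pair of groups overlapped, but these calls were lost under 8 and 6 of 16 alternatives. POLR2J, which encodes RPB11, was at 48.7, 47.6 and 48.97 CPM in DMSO and 46.6, 44.1 and 41.5 CPM in ML60218, and missed the threshold (−0.14, adjusted p 0.0522).

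Among the 15 general factors, 4 were lower and 1 was higher. This is 33.3% called, below the 39.0% of all genes. GTF2A2, the small TFIIA subunit (ENSG00000140307, chromosome 15, 59638062 to 59657541, minus strand), was at 59.0, 58.1 and 60.4 CPM in DMSO and 44.9, 45.8 and 43.2 CPM in ML60218. The groups did not overlap, at −0.41 (SE 0.041, adjusted p 0.000193), while GTF2A1, which encodes the large subunits, had −0.00 (adjusted p 0.95). GTF2B, which encodes TFIIB, was at 44.2, 44.96 and 44.3 CPM in DMSO and 37.1, 37.7 and 33.8 CPM in ML60218, a fall of 0.30 (SE 0.05, adjusted p 0.00157) with no overlap. GTF2H3 went the other way. It was at 104.3, 108.7 and 110.1 CPM in DMSO and 126.3, 136.8 and 142.3 CPM in ML60218, all treated libraries being higher, by 0.33 (SE 0.046, adjusted p 0.000707).

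Neither TFIIE gene passed, at 0.04 (GTF2E1) and −0.07 (GTF2E2). In the kinase module CCNH was at 47.6, 49.6 and 53.2 CPM in DMSO and 52.2, 51.5 and 52.4 CPM in ML60218, with overlap and no call (0.05, adjusted p 0.417). CDK7 was at 6.75, 2.46 and 2.35 CPM in DMSO and 2.17, 2.87 and 1.88 CPM in ML60218, again with a single high library. The falls of ERCC3 (−0.11) and GTF2F1 (−0.09) were lost under 8 and 13 of 16 alternatives.

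Of the 13 TAF genes, 4 were lower, 1 was higher and 8 did not pass. The called share, 38.5%, was near the 39.0% of all genes. TAF11 was at 85.7, 91.6 and 95.4 CPM in DMSO and 71.4, 73.5 and 68.1 CPM in ML60218 (−0.36, SE 0.048, adjusted p 0.00056). TAF13 was at 100.6, 106.8 and 103.3 CPM in DMSO and 81.9, 85.5 and 81.1 CPM in ML60218 (−0.32, SE 0.038, adjusted p 0.00033). Here the histone-fold partners were lower together, each without overlap. TAF7, at 130.2, 130.3 and 134.6 CPM in DMSO and 120.3, 122.3 and 126.4 CPM in ML60218, was called by a small margin (−0.10, SE 0.034, adjusted p 0.0413) that 12 of 16 alternatives removed.

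**Figure D3:**
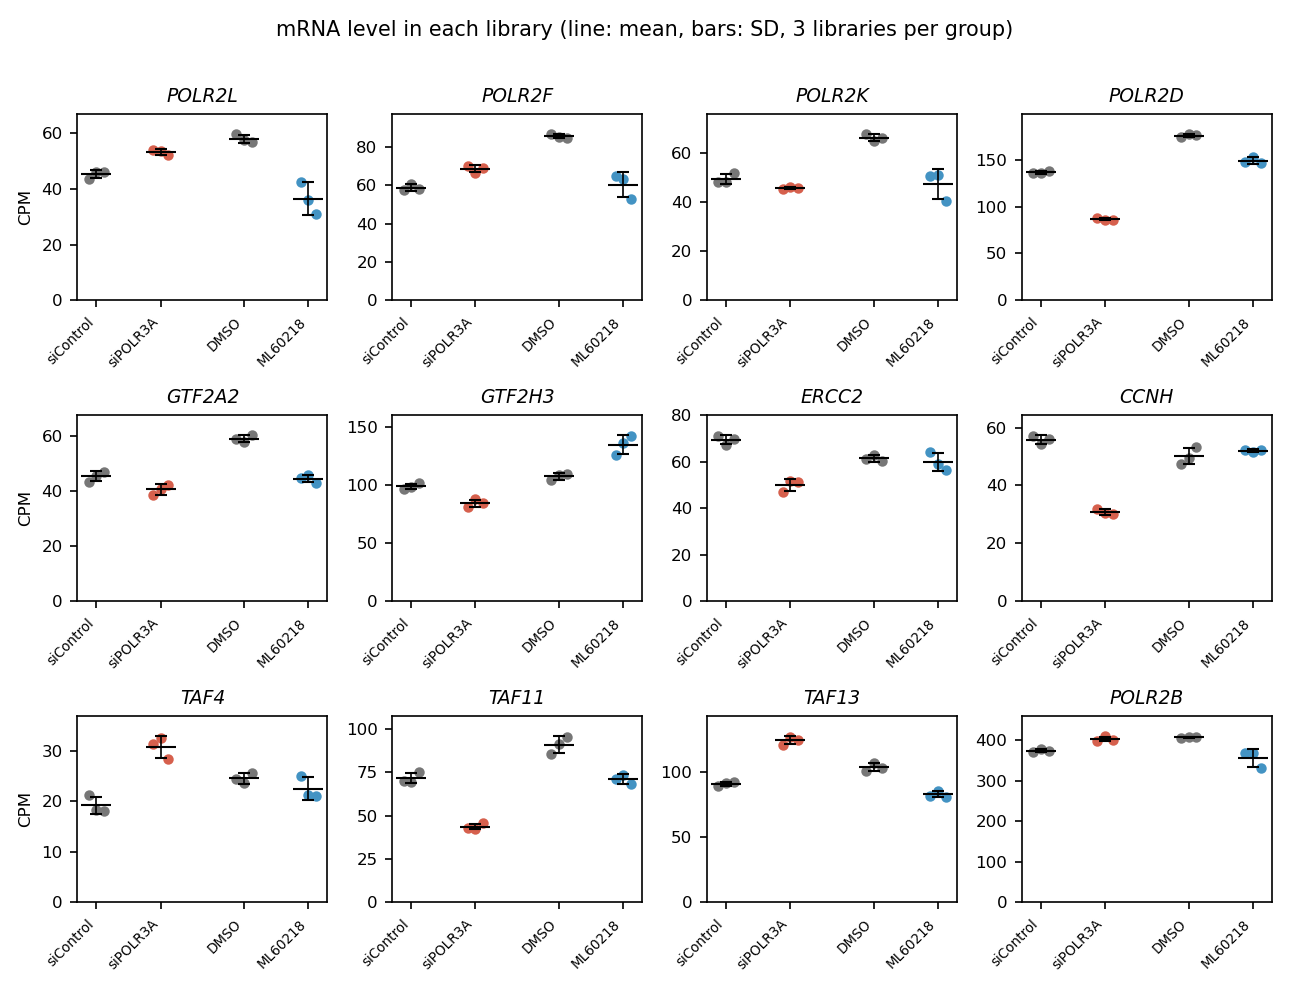
CPM of 12 members in each of the 12 libraries, with the mean and SD of each group of 3, on axes that start at 0. CCNH, POLR2D and ERCC2 drop in siPOLR3A with little difference or a smaller one in ML60218, while POLR2L, POLR2F and POLR2B are higher in siPOLR3A and lower in ML60218.

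The effects were then compared directly, by subtracting the inhibitor's log2 fold change from that of the knockdown in a fit of all 12 libraries. Of the members, 31 (77.5%) differed between the experiments, against 50.9% of the 15780 genes tested, with 19 differences positive and 12 negative (24.5% and 26.4% of all genes). By their calls, 14 members passed in both experiments, 16 in the knockdown alone, 6 with the inhibitor alone and 4 in neither. Of the 15165 genes tested in both, 26.2% passed in both, 31.0% in the knockdown alone, 13.3% with the inhibitor alone and 29.4% in neither. Of the 14, 6 had the same direction (POLR2D, POLR2E, POLR2K, GTF2A2, GTF2F1 and TAF11, all lower) and 8 had opposite directions, classes that held 12.3% and 13.9% of all genes respectively. Among the 6, the ML60218 call of GTF2F1 was lost under 13 of 16 alternatives and the knockdown call of POLR2K under 6 of 16. The coding transcript POLR2E-213 had 0.26 in the knockdown, which did not pass, and −0.64 with ML60218. The agent, the duration and the vehicle differ between the experiments and cannot be told apart here.

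The 8 were POLR2B, POLR2F, POLR2G, POLR2I, POLR2L, TAF7 and TAF13, which were higher after siPOLR3A and lower with ML60218, and GTF2H3 with the reverse. For all 8 the difference itself passed. It was largest in POLR2L (0.91, SE 0.119, adjusted p 5.49e-05), TAF13 (0.78, SE 0.047, adjusted p 2.65e-09) and POLR2F (0.73, SE 0.081, adjusted p 3.3e-06), and −0.55 in GTF2H3 (SE 0.061, adjusted p 1.89e-06). Of the 12 subunits, 9 had a positive difference that passed and 1, POLR2D, a negative one (−0.42, SE 0.038, adjusted p 2.1e-07). CCNH (−0.91, SE 0.061, adjusted p 8.28e-09) and TAF4 (0.81, SE 0.111, adjusted p 2.13e-05) also differed, each called in the knockdown and not with the inhibitor. The positive difference of POLR2E (0.13, adjusted p 0.0479) was lost under 11 of 22 alternatives and reversed under 2 others.

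Transcripts showed where some of these changes lay. Of 308 member transcripts, 180 were tested, and 7 were higher and 12 lower after siPOLR3A, which is 10.6% against 11.3% of all transcripts (4.87% higher, 6.43% lower). For POLR2D, the long coding transcript POLR2D-201 of 5038 bases was at 26.5, 23.2 and 25.2 TPM in siControl and 13.7, 12.7 and 13.6 TPM in siPOLR3A (−0.93, SE 0.041, adjusted p 0.000156). The shorter coding transcript POLR2D-203 of 1758 bases was at 15.9, 18.5 and 17.8 TPM in siControl and 16.5, 18.4 and 17.1 TPM in siPOLR3A, with overlap and a value of −0.04 (adjusted p 0.879). The noncoding POLR2D-204 was at 19.9, 20.9 and 20.1 TPM in siControl and at most 17.8 TPM in siPOLR3A, and did not pass (−0.43, adjusted p 0.0779). Of these transcripts the long one alone was called; differences between transcripts were not tested.

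For POLR2L the minor, coding transcript POLR2L-201, which held 25.7% of the gene's TPM in siPOLR3A, rose by 0.32 (SE 0.047, adjusted p 0.0112). The major one, the nonsense-mediated decay transcript POLR2L-202, did not pass (0.15, adjusted p 0.144). For POLR2E, 41.0% of the reads lay in coding transcripts. The coding POLR2E-213 was at 11.6, 11.4 and 12.6 TPM in siControl and 14.3, 15.3 and 14.3 TPM in siPOLR3A. It was higher without overlap but did not pass (0.26, adjusted p 0.0571). The nonsense-mediated decay transcripts POLR2E-206 (−0.51, adjusted p 0.0168) and POLR2E-201 (−0.42, adjusted p 0.0308) were called lower. In CCNH, TAF11, ERCC2, TAF4 and TAF13 the transcript with most of the gene's TPM was called in the direction of the gene. CCNH-201 had −0.97 (SE 0.059, adjusted p 0.000503), TAF11-201 −0.78 (SE 0.047, adjusted p 0.000467) and ERCC2-204 −0.59 (SE 0.081, adjusted p 0.00863). TAF4-201 rose by 0.66, and both TAF13 transcripts rose, the coding TAF13-201 by 0.46 and the nonsense-mediated decay transcript TAF13-202 by 0.42. With ML60218, 0 transcripts were higher and 4 lower at the adjusted threshold of edgeR (2.22% against 2.09% of all transcripts, 0.817% higher and 1.28% lower). The 4 were POLR2C-201 (−0.34), POLR2D-201 (−0.24), POLR2E-213 (−0.64) and TAF13-202 (−0.34). At an unadjusted p under 0.05 in edgeR, 7 were higher and 33 lower, and the share of all transcripts at that p was not computed. Without any 1 library between 0 and 2 member transcripts were called, and a minimum count of 50 gave 14.

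For 11 members the table also held transcripts newer than GENCODE 29, listed between 2 transcripts of the same gene. For TAF2, the aminopeptidase-like TAF, 34 such neighbours held 73.4% of the reads. On matched transcripts TAF2 was at 22.6, 31.0 and 33.8 CPM in siControl and 7.69, 8.41 and 3.32 CPM in siPOLR3A, a value of −2.16 (SE 0.396, adjusted p 0.0104). With the neighbours its summed level was 31.1, 27.0 and 28.1 TPM in siControl and 33.8, 34.5 and 36.6 TPM in siPOLR3A. The direction reversed, to 0.25 (SE 0.031, adjusted p 6.05e-07).

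The matched transcript TAF2-201 alone went from 5.80, 7.31 and 8.14 TPM in siControl to 1.10, 1.76 and 0.00 TPM in siPOLR3A. The groups did not overlap, but TAF2-201 did not pass the test over transcripts (−2.91, SE 1.178, adjusted p 0.209). A neighbour of 5016 bases meanwhile rose from 4.49, 3.71 and 3.94 to 7.98, 8.22 and 7.74 TPM (0.95, SE 0.065, adjusted p 0.000731). TAF2 therefore gives a different answer for the matched transcript and for the summed gene, and whether reads passed between near-identical transcripts in the estimation was not tested.

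**Figure D4:**
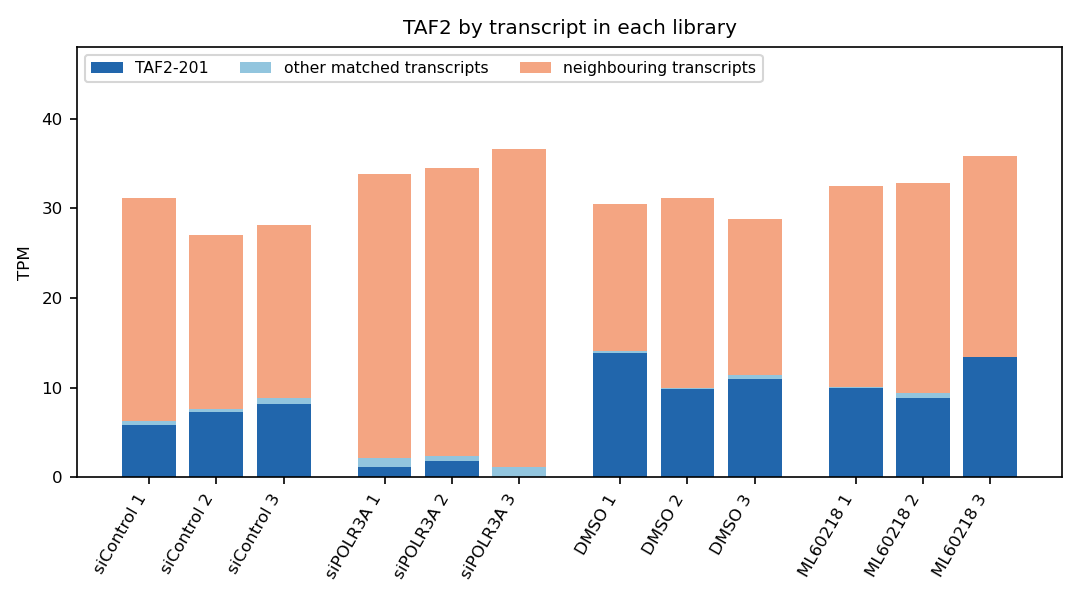
TPM of TAF2 in each of the 12 libraries, stacked as TAF2-201, other matched transcripts and neighbouring transcripts without a GENCODE 29 match. TAF2-201 is at 0.00 to 1.76 TPM in the siPOLR3A libraries, a difference that did not pass over transcripts (adjusted p 0.209), while the summed height is 33.8 to 36.6 TPM, above the 27.0 to 31.1 TPM of siControl.

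Calls of 5 other members also turned on the neighbours or the refit with them. TAF1, the largest TAF, was at 38.9, 49.7 and 42.1 CPM in siControl, 36.2, 26.4 and 31.2 CPM in siPOLR3A, 56.3, 50.6 and 51.1 CPM in DMSO and 47.5, 44.1 and 38.5 CPM in ML60218. Its knockdown value went from −0.48 (adjusted p 0.0632) to −0.23 (adjusted p 0.000303) with the neighbours, and its inhibitor value from −0.28 (adjusted p 0.021) to −0.00 (adjusted p 0.941). The call thus moved from the inhibitor to the knockdown.

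TAF6, another histone-fold TAF, was at 16.2, 16.8 and 18.6 CPM in siControl, 17.5, 17.9 and 17.8 CPM in siPOLR3A, 14.98, 15.15 and 14.71 CPM in DMSO and 19.0, 17.2 and 17.6 CPM in ML60218. With the 33 neighbours that held 53.3% of its reads, the knockdown value went from 0.04 to 0.20 (adjusted p 7.74e-05) and the inhibitor value from 0.26 to 0.05 (adjusted p 0.472). The only called rise of a TAF with ML60218 was lost. TAF9 also lost its knockdown call (−0.28, adjusted p 0.0568). POLR2J (inhibitor, adjusted p 0.039) and GTF2B (knockdown, adjusted p 0.045), which have no neighbours, crossed the threshold because the whole table was refitted. In the knockdown GTF2B had stood at 37.4, 37.9 and 35.0 CPM in siControl and 34.3, 32.9 and 35.4 CPM in siPOLR3A, with overlap.

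**Figure D5:**
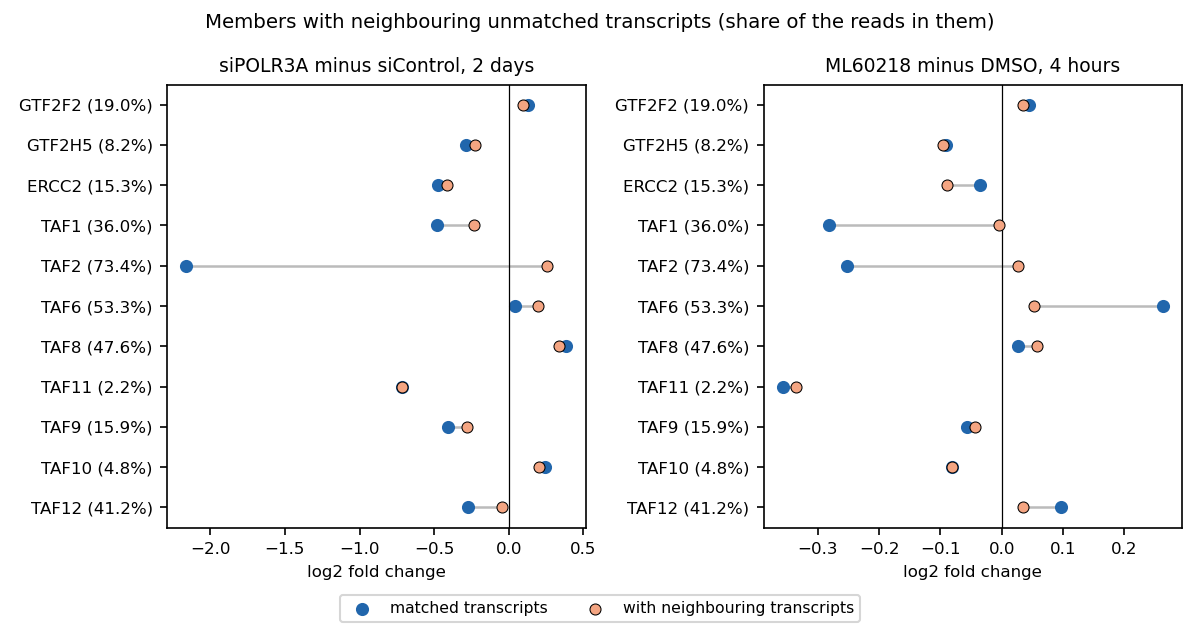
Log2 fold change of the 11 members with neighbouring transcripts, on matched transcripts and with neighbours added, for the knockdown (left) and the inhibitor (right). The percentage beside each name is the share of its reads in the neighbours, and TAF2 is the gene that moves furthest, from −2.16 to 0.25 in the knockdown.

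Other genes of the pathway were counted from lists, to be read against the 56.6% of all genes called in the knockdown and the 39.0% called with the inhibitor. The shares called were 72.4% and 58.6% for Mediator, 72.4% and 41.4% for pausing and elongation, 55.6% and 38.9% for assembly and phosphatases, and 87.5% and 43.8% for the TBP list. Of 29 Mediator genes tested, which bridge activators and Pol II, 14 were higher and 7 lower after siPOLR3A, and 6 were higher and 11 lower with ML60218. MED1, a contact for nuclear receptors, went from 198 ± 7.07 to 85.2 ± 0.946 CPM after siPOLR3A (−1.22, SE 0.03, adjusted p 6.64e-13), and MED31 from 15.1 ± 0.234 to 10.6 ± 1.29 CPM with ML60218 (−0.51, SE 0.089, adjusted p 0.0019; SD, n = 3, edgeR). MED24 was lower in the knockdown (−0.77) and MED12, of the kinase module of Mediator, higher with the inhibitor (0.49). Of 29 genes of pausing and elongation, 10 were higher and 11 lower after siPOLR3A, and 3 were higher and 9 lower with ML60218. SSRP1, a subunit of the histone chaperone FACT, had −0.88 in the knockdown and ELOA, a subunit of Elongin, 0.57. HEXIM1, an inhibitor of the elongation kinase P-TEFb, had −0.61 with the inhibitor and SUPT4H1, a subunit of DSIF, −0.48.

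Of 18 genes of Pol II assembly and of its phosphatases, 6 were higher and 4 lower after siPOLR3A, and 1 was higher and 6 lower with ML60218. URI1, a prefoldin-like assembly factor, rose from 79.1 ± 0.521 to 131.5 ± 0.697 CPM in the knockdown (0.73, SE 0.026, adjusted p 1.97e-11), and RPRD1A, which binds the Pol II tail, rose by 0.58. CTDP1, a phosphatase of that tail, had −0.39 and UXT, a prefoldin-like protein, −0.25 with the inhibitor. Of 16 tested genes in the list of TBP, paralogs and SAGA counterparts, 9 were higher and 5 lower after siPOLR3A, and 3 were higher and 4 lower with ML60218. TBP, which all 3 polymerases use, was at 34.2, 35.3 and 34.5 CPM in siControl and 47.0, 48.3 and 47.8 CPM in siPOLR3A, a rise of 0.46 (SE 0.035, adjusted p 5.91e-08). It was at 44.7, 45.7 and 45.9 CPM in DMSO and 49.5, 50.4 and 51.6 CPM in ML60218, a rise of 0.15 (SE 0.04, adjusted p 0.013). TBP was thus higher without overlap in both experiments. DR1, which encodes a TBP-binding repressor subunit, had −0.91 in the knockdown (SE 0.027, adjusted p 3.33e-12), and TAF7L, a TAF7 paralog at 0.476 CPM in siControl, rose by 1.13. With the inhibitor POLR2J2 had −0.25 and POLR2M 0.21.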

How the data were processed

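Messenger RNA libraries of HEK293T cells, 3 per group, were grouped by their titles. Per the file headers, the deposited table gives salmon-style estimated counts and TPM for 194142 transcripts; hg38, Trim Galore and DESeq2 are named per the submitters' processing notes, and the quantifier's version, strand setting and transcript release are not given in the sources used here. Of the transcripts, 158359 (81.6%, with 91.0% to 91.6% of the reads) matched GENCODE 29 by stable identifier; the rest, with 8.37% to 8.97% of the reads, were left out. The design assumed counts per gene, so estimated counts were added up within each gene and then rounded.

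Libraries were scaled by TMM, filtered with filterByExpr (minimum count 10, total 15) and tested two-sided with edgeR 4.0.16 in R 4.3.3 (robust quasi-likelihood), Benjamini-Hochberg adjusted over all genes or transcripts, threshold 0.05. An exact permutation test of 3 against 3 libraries cannot go below a p of 0.1. The SE is the log2 fold change over the square root of F. The steps were tested on simulated data. Libraries of 1 replicate number did not deviate together (correlations from −0.07 to 0.07). Alternatives were RLE, upper quartile and total count scaling, other filters, DESeq2 1.42.0, neighbouring transcripts, an isoform length offset, a GC and length trend, a replicate block and leaving out each library. Genes named with every library's value were POLR2A, the up to 8 largest called members of each comparison, those called in opposite directions and those whose call turned on neighbouring transcripts. Members and lists were chosen with earlier results of these data known. Only reads and TPM of the 12 libraries were used.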

Additional observations from a re-analysis of the deposited data

Results flagged for a closer look

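For 8 members the effects had opposite signs, each passed in its own experiment, and their difference, siPOLR3A effect minus ML60218 effect, passed as well in edgeR's fit of all 12 libraries. The difference was 0.91 for POLR2L, 0.73 for POLR2F, 0.42 for POLR2I, 0.34 for POLR2G and 0.31 for POLR2B among the subunits. It was 0.78 for TAF13 and 0.33 for TAF7 among the TAFs, and −0.55 for GTF2H3 of TFIIH. All 8 differences passed under each of the 22 alternatives. The calls behind them in a single experiment were less stable for POLR2I, POLR2F and POLR2L in the knockdown, where removing the GC and length trend ended them (for POLR2I the isoform length offset did too), and for TAF7, POLR2G and POLR2I with ML60218.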

How the results depend on the processing

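Under the alternatives other than leaving out a library, 27 to 32 members were called after siPOLR3A (30 in the report), 14 to 20 with ML60218 (20) and 26 to 31 in the difference (31). Leaving out 1 library gave 28 to 30, 14 to 20 and 26 to 30. Calls kept under every alternative numbered 19 of 30, 12 of 20 and 20 of 31. Where either value passed, 7 member values changed sign, and 33 more did so with neither value passing, among them TAF2 with ML60218. Of the 7, those with neighbouring transcripts included were TAF2 after siPOLR3A (0.25) and in the difference (0.22), and TAF6 in the difference (0.14). The isoform length offset reversed TAF8 with ML60218 (−0.23) and POLR2E in the difference (−0.15), and the GC and length trend also reversed POLR2E in the difference (−0.09). CDK7 after siPOLR3A ranged from −0.80 (without siPOLR3A replicate 1) to 1.87 (without siPOLR3A replicate 2). DESeq2 gave CDK7 a log2 fold change of 1.37 after siPOLR3A and did not call it. For CDK7 the DESeq2 fit was not counted among the alternatives there or in the difference. The replicate block, for numbers that did not pair the libraries, called 27 members after siPOLR3A, 17 with ML60218 and 27 in the difference, ended the call of TAF2 (adjusted p 0.0766), and called 7 member transcripts after siPOLR3A (19 in the report) and 0 with ML60218 (4). Transcript calls with ML60218 numbered 2 with total count scaling, 14 with a minimum count of 50, and 0 to 2 without 1 library, and after siPOLR3A 15 to 18 without 1 library. The cause was not tested. Of the tested members CDK7 and POLR2A rested on the fewest reads, 32.9 and 90.7 in their lowest libraries.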
